A study of Mus musculus with 6 samples.

Results

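The genes described here are 10 members of the transforming growth factor beta (TGF-beta) system, taken by symbol from the 45706 genes of a count table of cultured mouse lung fibroblasts. They are the ligand genes Tgfb1, Tgfb2 and Tgfb3, the receptor genes Tgfbr1, Tgfbr2 and Tgfbr3, the latent TGF-beta binding protein genes Ltbp1 and Ltbp2, and the feedback inhibitor genes Smad7 and Skil. All 10 were found and all 10 had enough counts to test. TGF-beta is secreted in a latent form, bound to its own propeptide and, through it, to a latent binding protein that anchors it in the matrix. Once released, the ligand joins a type II and a type I receptor kinase, the latter of which phosphorylates SMAD proteins that enter the nucleus. In lung fibroblasts this pathway is best known for driving matrix production and the contractile myofibroblast state, and the inhibitors it induces limit its own signal.

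The cells were wild-type primary fibroblasts grown out of perfused, enzyme-digested lungs in medium with serum. Each group held 3 samples, one of controls and the other given mouse DKK1, a recombinant protein, for 24 hours at 30 ng/ml. DKK1 is a secreted antagonist of Wnt signalling that acts on its LRP co-receptors. The labels give neither strain nor age, and nothing in them says whether the 3 samples of a group came from separate animals or cultures. Unpaired p-values are set against the spread between the samples of a group. Those with the replicate block, described below, are set against the spread of the differences between same-numbered samples. Either spread may be technical.

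Libraries held 22565917 to 34727102 counts, and the DKK1 library was the deeper in each same-numbered pair. Markers of fibroblasts were abundant, at a summed level of 11935 to 13621 CPM (counts scaled to each library total) over 8 genes in controls and 11257 to 12716 CPM with DKK1. The sum of 5 smooth muscle and pericyte markers was 982 to 1013 CPM in controls and 834 to 875 CPM with DKK1, without overlap. Both sums were lower with DKK1 in all 3 pairs. Of the smooth muscle and pericyte markers, 4 of 5 were called lower with the replicate block described below, and Myh11, a smooth muscle myosin gene, was called lower also unpaired (log2 fold change -0.30, edgeR adjusted p = 0.00387). Of the 8 fibroblast markers, 5 were called lower with the block (Col1a1, Col1a2, Pdgfrb, Thy1 and Vim) and 2 higher. These were Dcn (edgeR adjusted p = 9.73e-06 with the block; 0.0791 unpaired) and Pdgfra (9.75e-07; 0.547). The sum of 7 leukocyte markers, most of it Lyz2, was 409, 475 and 823 CPM in controls and 448, 492 and 856 CPM with DKK1, and that of 3 platelet markers was 3.61 to 4.99 and 4.92 to 8.54 CPM. These ranges overlapped between the groups, and both sums were higher with DKK1 in all 3 pairs. Single markers did not move together. Itgam, an integrin gene of myeloid cells, stood at 11.5 to 20.6 CPM in controls and 25.0 to 43.2 CPM with DKK1, without overlap (edgeR adjusted p = 0.136 unpaired and 7.23e-08 with the block). Adgre1 was also called higher with the block (adjusted p = 0.00179), Mrc1 (0.000384) and Csf1r (0.0364) lower, and the other 3 were not called. The platelet gene Ppbp went from 0.133 to 0.397 CPM in controls to 0.921 to 1.65 CPM with DKK1 (adjusted p = 0.0568 unpaired and 0.000811 with the block). The summed epithelial (6 genes), endothelial (5) and mesothelial (4) markers were each at most 59.2 CPM in any library, and highest in replicate 3 of both groups. No marker was at 0 in all libraries. The part that cell composition has in the results below was not tested, and in such bulk samples fewer cells of a type and less RNA per cell cannot be told apart.

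The fall of Tgfb3 was the only change among the 10 members called when samples were compared as unpaired groups (edgeR quasi-likelihood test, adjusted p under 0.05), where 0.895% of all 14635 tested genes were called. When the replicate number was added as a block, which compares each DKK1 sample with the control of the same number, 6 members were called. Tgfb1, Tgfbr1, Tgfbr3 and Ltbp2 were higher with DKK1 and Tgfb2 and Tgfb3 lower. That fit called 9.42% of all tested genes, 4.96% higher and 4.46% lower. Leaving out the pair of replicates 2 reduced the 6 members called to 2, Tgfb3 and Tgfbr3, while the calls over the whole table went from 1379 to 612. Without the pair of replicates 1 the same 6 were called, and without the pair of replicates 3 also Tgfbr2. Values of the groups did not overlap for 3 members, Tgfb2, Tgfb3 and Tgfbr1, against 16.5% of all tested genes. With DKK1, 5 members were higher in all 3 pairs and 2 were lower in all 3, while Tgfbr2, Ltbp1 and Skil were mixed. The share of all tested genes with a single direction in all 3 pairs is not given, so these counts have no background. The median log2 fold change over the members was 0.078 in the unpaired fit and 0.079 with the block, beside -0.00091 and -0.00063 over all tested genes.

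**Figure D1:**
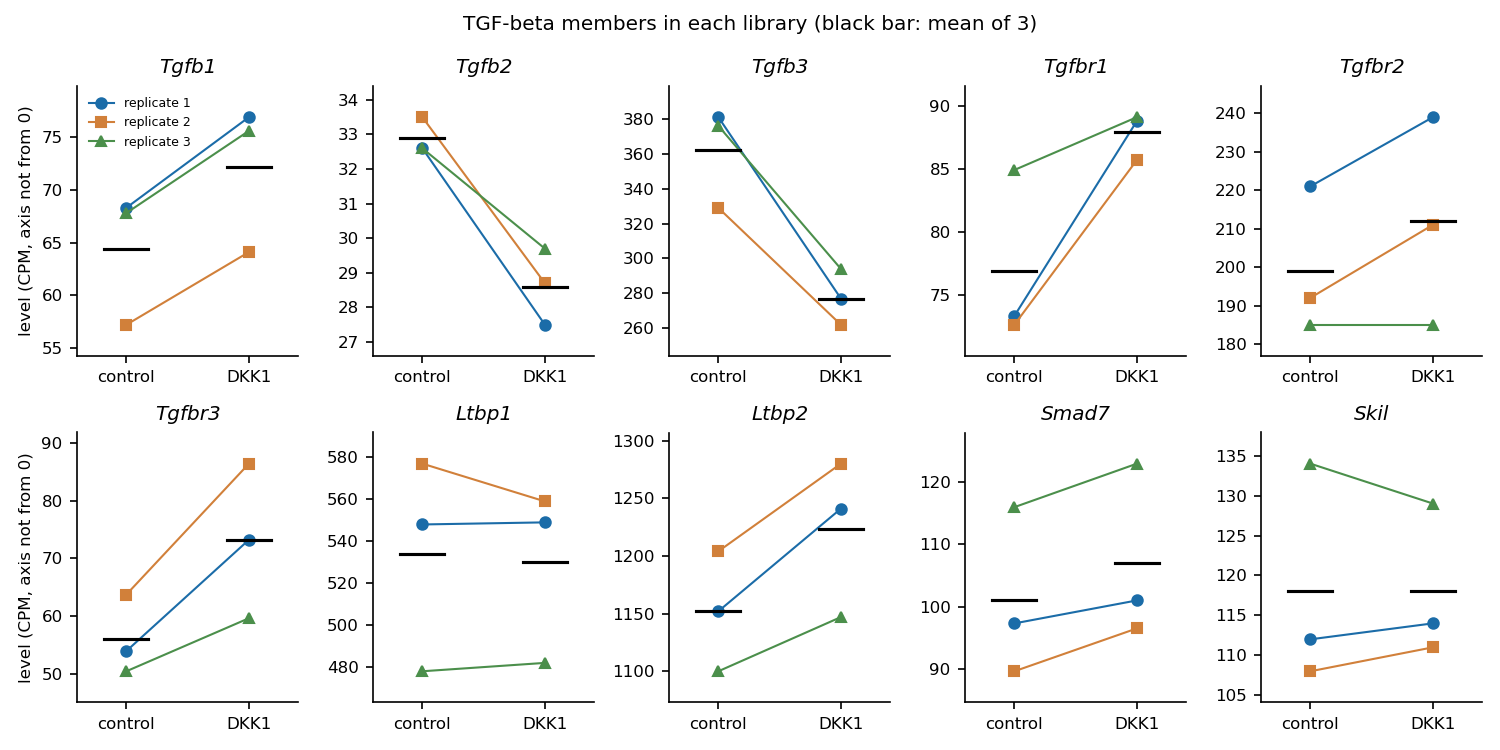
Level of each member (CPM, vertical axes not starting at 0) in the 3 control and 3 DKK1 libraries; lines join libraries with the same replicate number and black bars are group means. Tgfb3 falls from 329 to 381 CPM in controls to 262 to 294 CPM with DKK1, and replicate 3 stands highest for Smad7 and Skil and lowest for Tgfbr3, Ltbp1 and Ltbp2 in both groups.

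Levels of different members were compared per transcript length, in TPM (counts per length, scaled to a common total) computed from the median length of each gene's coding transcripts. Ltbp2 was the most abundant member in controls, at 544 ± 26.4 TPM (SD, n = 3), above 97.8% of the tested genes. Tgfb3 (187 ± 14.6 TPM) and Ltbp1 (186 ± 18.4 TPM) came next and their ranges overlapped. Smad7 followed at 132 ± 17.0 TPM. Skil, Tgfbr2, Tgfbr1 and Tgfb1 lay between 51.7 and 70.8 TPM, each overlapping its neighbour in that order. Tgfbr3 (28.9 ± 3.64 TPM) and Tgfb2 (13.3 ± 0.25 TPM) were the least abundant and stood apart from each other and from the rest. With DKK1 the order of Tgfb3 and Ltbp1 was exchanged, at 143 ± 7.88 and 184 ± 15.6 TPM, and their ranges still did not overlap any other member's except that Tgfb3 overlapped Smad7 (139 ± 17.3 TPM). The order of Tgfbr2 and Tgfbr1 was exchanged as well, at 63.7 ± 8.72 and 65.2 ± 1.49 TPM, with overlapping ranges. With the longest transcript of each gene as its length, Ltbp2, Tgfb3 and Ltbp1 were still the first 3 in controls and Tgfbr3 and Tgfb2 the last. The order between them was not kept, and Tgfb1, at 77.7 TPM, then stood above Smad7, at 61.9 TPM.

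Among the ligands, Tgfb3 fell and made up most of the ligand transcripts. Tgfb3 (ENSMUSG00000021253, GRCm38 chr12:86056745-86079041, minus strand) encodes the isoform best known from palate and lung development. It was measured at 381, 329 and 376 CPM in control replicates 1 to 3 and at 277, 262 and 294 CPM in the DKK1 replicates. Every DKK1 value lay below every control value. The level was 0.764 times that of controls, or -0.39 on the log2 scale with an SE of 0.0611 (adjusted p = 0.0285 by edgeR), and with the block the same change had an SE of 0.0257 (adjusted p = 5.97e-07). The log2 ratios within pairs were -0.46, -0.33 and -0.35. The unpaired call was lost when control replicate 1 (adjusted p = 0.123), control replicate 3 (0.0725), DKK1 replicate 1 (0.148) or DKK1 replicate 2 (0.11) was left out, with log2 fold changes of -0.39 to -0.35, and kept without either of the other two libraries. On the opposite strand Tgfb3 overlaps Ttll5 outside exons and Gm37804 and Gm48008 in exons. Gm37804 held at most 6 counts in any library, and the level of Gm48008, which did not match the count table, is not known.

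Tgfb1 (ENSMUSG00000002603), the isoform most often linked to fibrosis, went the other way by a smaller amount. Its values were 68.3, 57.2 and 67.8 CPM in controls and 76.9, 64.1 and 75.6 CPM with DKK1. The groups overlapped, replicate 2 was the lowest in both, and the log2 ratios within pairs were 0.17, 0.16 and 0.16. In the unpaired fit the log2 fold change was 0.16 with an SE of 0.0855 (adjusted p = 0.591 by edgeR), from 0.08 without control replicate 2 to 0.24 without DKK1 replicate 2. Tgfb1 was called with the block (SE 0.0321, adjusted p = 0.00598). DESeq2 with the block did not call it (adjusted p = 0.239). Leukocytes and platelets are known sources of Tgfb1. Their summed markers, given above, were also higher with DKK1 in all 3 pairs, as were Itgam, Adgre1 and Ppbp and, called in neither fit, Lyz2. Mrc1 and Csf1r were lower in all 3 pairs, and Ptprc, Cd68, Pf4 and Itga2b were mixed and not called. The part of these cells in the Tgfb1 result was not tested.

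Tgfb2 (ENSMUSG00000039239), the isoform that depends most on the co-receptor betaglycan, was the least abundant ligand. It stood at 32.6, 33.5 and 32.6 CPM in controls and 27.5, 28.7 and 29.7 CPM with DKK1, without overlap. The difference, -0.21 on the log2 scale, was not called without the block (SE 0.048, edgeR adjusted p = 0.12) and was called with it (SE 0.0453, adjusted p = 0.00991). DESeq2 with the block did not call it (adjusted p = 0.389).

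The balance of the ligand transcripts shifted within every library pair. Per length, Tgfb3 made up 74.3%, 74.0% and 74.1% of the ligand transcripts in the controls and 66.2%, 68.1% and 67.6% with DKK1. The share of Tgfb1 was 20.7%, 20.0% and 20.8% in controls and 28.6%, 26.0% and 27.0% with DKK1, while that of Tgfb2 was 5.33% ± 0.526 and 5.48% ± 0.365 (SD, n = 3 each). The ratio of Tgfb1 to Tgfb3 was 0.277 ± 0.00545 in controls and 0.405 ± 0.0259 with DKK1, and no scaling between libraries enters it. The groups did not overlap in this ratio or in the shares of Tgfb1 and Tgfb3. The summed ligand level was 252 ± 19.3 TPM in controls and 212 ± 13.1 TPM with DKK1. These shares follow from the changes of Tgfb1 and Tgfb3 and are given as a description.

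**Figure D2:**
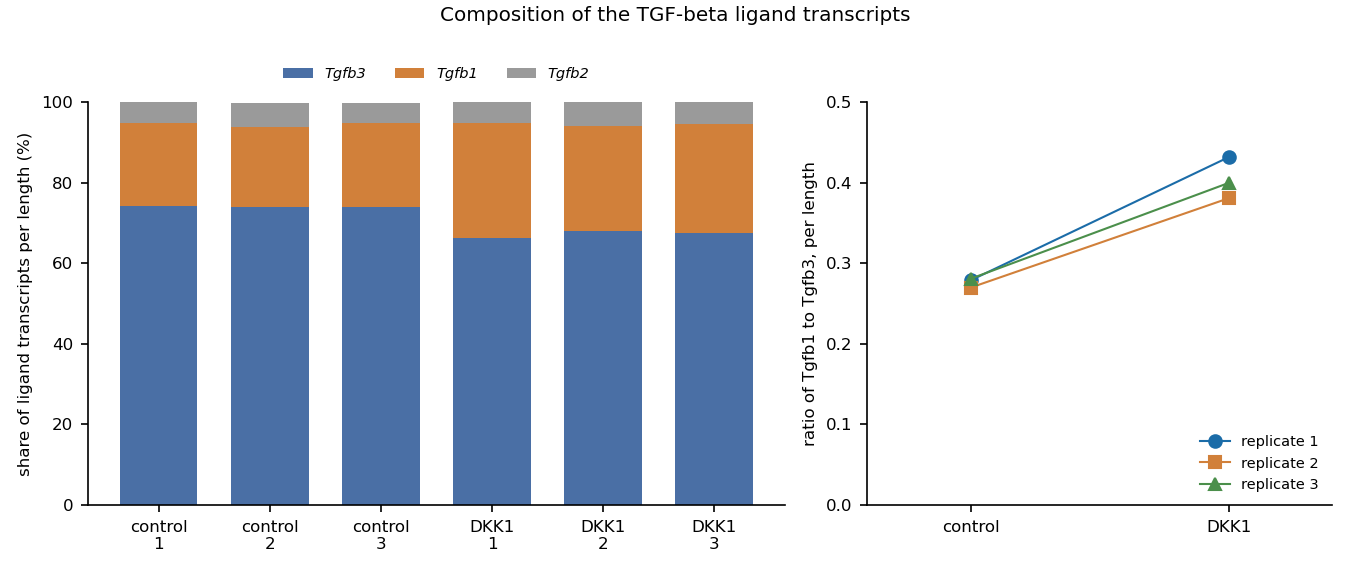
Left, share of the 3 ligand genes among their transcripts per length (%) in each library; right, ratio of Tgfb1 to Tgfb3 per length, with lines joining libraries of the same replicate number. The ratio lies at 0.27 to 0.281 in the control libraries and 0.381 to 0.432 in the DKK1 libraries.

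The promoters of Tgfb1 and Tgfb2, the ligands that moved in opposite directions with the block and that matched the RefSeq promoter table (GRCm38.p6), are shown to compare their sequence. The 250 bases before the start are given, at chr7:25686752-25687001 (plus strand) for Tgfb1 and at chr1:186705990-186706239 (minus strand) for Tgfb2. Capitals mark the motifs searched on both strands. These were the TATA box, spelled TATAAA, the E-box, spelled CACGTG, and the core letters of SMAD binding, CAGAC. Also searched were the GC box, spelled GGGCGG, and the core of cyclic AMP response elements, TGACG. The last was that of TCF/LEF factors, the nuclear partners of the Wnt pathway, spelled CTTTGAT and, as an alternative spelling, CTTTGTT.
Tgfb1: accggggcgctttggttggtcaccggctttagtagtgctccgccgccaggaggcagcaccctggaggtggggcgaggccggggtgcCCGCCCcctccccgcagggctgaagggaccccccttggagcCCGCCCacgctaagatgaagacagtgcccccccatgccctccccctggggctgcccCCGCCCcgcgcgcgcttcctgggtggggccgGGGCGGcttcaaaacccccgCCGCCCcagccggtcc
Tgfb2: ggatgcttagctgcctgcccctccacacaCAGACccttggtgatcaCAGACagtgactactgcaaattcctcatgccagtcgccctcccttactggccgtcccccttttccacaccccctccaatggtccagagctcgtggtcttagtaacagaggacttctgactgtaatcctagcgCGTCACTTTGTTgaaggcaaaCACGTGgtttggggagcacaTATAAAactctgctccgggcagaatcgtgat

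The Tgfb1 window is rich in G and C (75.2%, against a median of 52.4% over all 32817 promoters) and holds 5 GC boxes and none of the other motifs. The Tgfb2 window has a G and C content of 53.6% and no GC box. It holds a TATA box 31 to 26 bases before the start, an E-box at 51 to 46, a TCF/LEF match at 67 to 61, a cyclic AMP core on the other strand at 72 to 68, next to it without overlap, and 2 SMAD cores at 221 to 217 and 204 to 200. In all promoters TATAAA was found in 12.4%, CACGTG in 6.02%, CAGAC in 42.2%, GGGCGG in 32.7%, the TCF/LEF letters in 8.07% and TGACG in 17.7%. These are matches of letters and do not show binding.

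Among the receptors, Tgfbr3 had the largest rise. Tgfbr3 (ENSMUSG00000029287) encodes betaglycan, the co-receptor that presents ligand to the signalling receptors. Its values were 53.9, 63.7 and 50.4 CPM in controls and 73.2, 86.4 and 59.6 CPM with DKK1. DKK1 replicate 3 lay within the control range, and every pair was higher with DKK1, by log2 ratios of 0.44, 0.44 and 0.24. The log2 fold change of 0.38 was not called without the block (SE 0.136, edgeR adjusted p = 0.338) and was called with it (SE 0.0409, adjusted p = 4.12e-05) and by DESeq2 with the block (adjusted p = 1.13e-05). In the unpaired fit it was 0.24 without DKK1 replicate 2 and 0.51 without DKK1 replicate 3. All 6 libraries gave it fractional expected counts, and it shares exons on the same strand with Gm43422, which held at most 7 counts.

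Tgfbr1 (ENSMUSG00000007613), the type I receptor kinase also called ALK5, was at 73.3, 72.6 and 84.9 CPM in controls and 88.8, 85.7 and 89.1 CPM with DKK1. The groups were separated by less than 1 CPM, between control replicate 3 and DKK1 replicate 2. The log2 fold change of 0.19 was not called in the unpaired fit (SE 0.0586, edgeR adjusted p = 0.27) and was called with the block (SE 0.0387, adjusted p = 0.00605). It was also called in the unpaired fit without control replicate 3, at 0.256 (adjusted p = 0.0477), and not by DESeq2 with the block (adjusted p = 0.0748).

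Tgfbr2 (ENSMUSG00000032440), the type II receptor kinase that binds ligand, was the most counted receptor gene. It stood at 221, 192 and 185 CPM in controls and at 239, 211 and 185 CPM with DKK1. Replicates 1 and 2 were higher with DKK1, and the values of the third pair were equal to 3 digits. Its log2 fold change was 0.08 (95% interval -0.14 to 0.31, edgeR adjusted p = 0.841; with the block 0.023 to 0.14, adjusted p = 0.0844). It was called with the block once the trend of each library against GC content and transcript length was removed (log2 fold change 0.10, adjusted p = 0.0272). In the unpaired fit the log2 fold change was -0.0143 without DKK1 replicate 1 and 0.174 without DKK1 replicate 3.

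**Figure D3:**
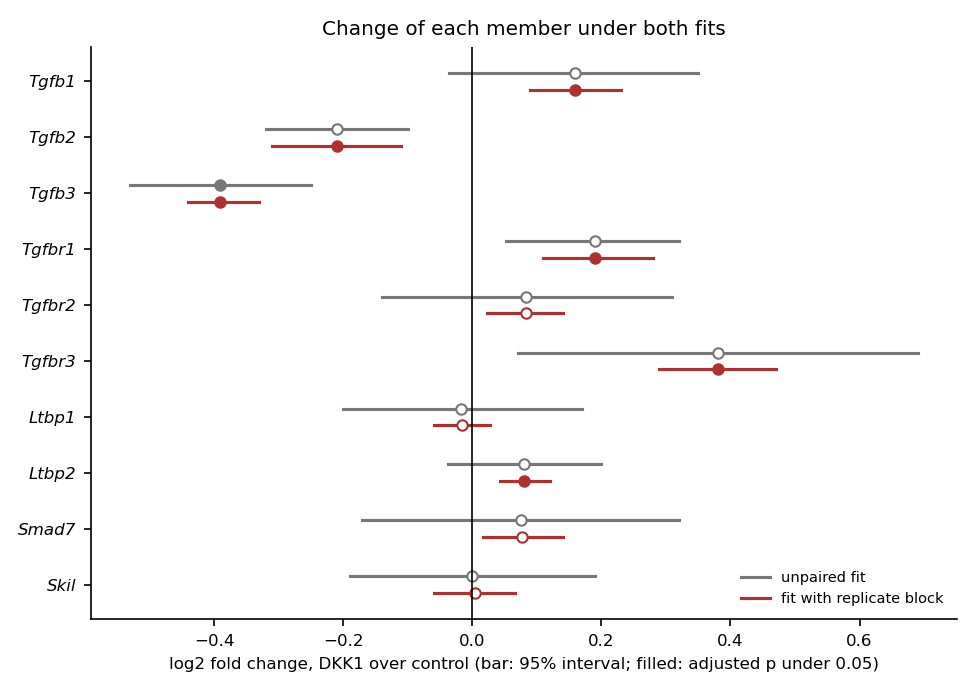
Log2 fold change of each member, DKK1 over control, with its 95% interval in the unpaired fit (grey) and in the fit with the replicate block (red); filled points passed an adjusted p of 0.05. Tgfb3, at -0.39, is filled in both fits, and the intervals of the block are narrower for every member.

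Of the latent binding protein genes, Ltbp2 was called with the block and Ltbp1 in neither fit, and the difference between their changes was not tested. Ltbp2 (ENSMUSG00000002020) encodes a protein of elastic fibres that resembles the other family members but is not known to hold latent TGF-beta. It was measured at 1152, 1204 and 1100 CPM in controls and 1241, 1280 and 1147 CPM with DKK1. The groups overlapped, and each pair was slightly higher with DKK1. The difference, 0.08 on the log2 scale, was called with the block (SE 0.0174, edgeR adjusted p = 0.00926) and not without it (SE 0.052, adjusted p = 0.666). The call with the block was lost without pair 2 (adjusted p = 0.138), and the unpaired value ran from 0.042 without control replicate 3 to 0.13 without DKK1 replicate 3. The antisense gene D030025P21Rik overlaps its exons and held 311 to 430 counts per library, against at least 24908 for Ltbp2.

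Ltbp1 (ENSMUSG00000001870), whose product binds the latent ligand complex and tethers it to fibrillin and fibronectin, was at 548, 577 and 478 CPM in controls and 549, 559 and 482 CPM with DKK1. The same-numbered libraries stood close together and replicate 3 was the lowest in both groups. The log2 fold change was -0.02, with a 95% interval of -0.20 to 0.17 (edgeR adjusted p = 0.976) and, with the block, of -0.059 to 0.027 (adjusted p = 0.721).

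Neither feedback inhibitor was called in either fit. Smad7 (ENSMUSG00000025880) encodes an inhibitory SMAD that brings ubiquitin ligases to the type I receptor and is induced by TGF-beta signalling. Its values were 97.3, 89.6 and 116 CPM in controls and 101, 96.5 and 123 CPM with DKK1. Each pair was higher with DKK1, at log2 ratios of 0.056, 0.11 and 0.084, and the log2 fold change was 0.08 (95% interval -0.17 to 0.32, edgeR adjusted p = 0.879). Unpaired, this change was -0.0304 without DKK1 replicate 3 and 0.178 without control replicate 3. With the block the interval was 0.017 to 0.14 and the adjusted p 0.118.

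Skil (ENSMUSG00000027660) encodes SnoN, a nuclear corepressor that binds SMAD complexes and whose gene is itself a target of the pathway. It was at 112, 108 and 134 CPM in controls and at 114, 111 and 129 CPM with DKK1. The group means were both 118 CPM, and the 95% interval of its log2 fold change reached from -0.19 to 0.19 in the unpaired fit (edgeR adjusted p = 0.999) and from -0.059 to 0.066 with the block (adjusted p = 0.967). The sign of this change near 0 differed between settings.

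The replicates differed from one another in a pattern that both groups shared. Smad7, Skil and Tgfbr1 were highest in replicate 3 of each group. Tgfbr2, Tgfbr3, Ltbp1 and Ltbp2 were lowest there, and Tgfb1 and Tgfb3 were lowest in replicate 2 of each group. Replicate 3 of both groups also stood apart in markers of other cell types. The leukocyte sum was 823 and 856 CPM there against 409 to 492 CPM in the other libraries. The epithelial sum was 36.4 and 39.2 CPM against 9.47 to 13.8 CPM, the endothelial sum 59.2 and 58.2 against 18.9 to 26.0 CPM, and the mesothelial sum 28.1 and 31.6 against 9.73 to 10.9 CPM. Their part in the replicate differences was not tested. For Smad7, Skil, Ltbp1, Tgfbr2, Tgfb1 and Ltbp2 the range in CPM over the replicates of each group was larger than any difference within a pair.

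The other genes of the pathway were taken from 5 lists with 51 genes, of which all were tested. In the unpaired fit 3 were called, 2 higher and 1 lower, and with the block 18 were called (35.3%), 5 higher and 13 lower, beside the 9.42% of all tested genes given above. Without the pair of replicates 2 this fell to 10, and DESeq2 with the block also called 10, beside 612 and 558 genes called over the whole table. Values of the groups did not overlap for 8 of the 51 (15.7%), 3 higher and 5 lower with DKK1, against 16.5% of all tested genes. The lists were drawn up with earlier results on some of their genes known (Eln, Acta2 and Col1a1 among them), so their counts are not independent evidence of a direction.

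Of 13 genes for latency and activation of the ligand, 0 were called in the unpaired fit, where 3 had an unadjusted p under 0.05 (edgeR; DESeq2 without the block called 0), and 3 with the block. DESeq2 with the block called 0 of these 3. Lrrc32, which encodes GARP, a cell surface anchor of latent TGF-beta, stood at 471 ± 26.8 CPM in controls and 542 ± 61.7 CPM with DKK1 (SD, n = 3 each) and rose with the block (log2 fold change 0.20, edgeR adjusted p = 0.000591; DESeq2 0.0755). Its unpaired value was 0.10 without DKK1 replicate 1. Ltbp4, a further latent binding protein, went from 59.7 ± 5.99 to 53.0 ± 2.59 CPM (log2 fold change -0.18, adjusted p = 0.0173 with the block; DESeq2 0.289), and the call was lost without pair 2 or 3 and with the GC and length trend removed (0.0549). Fbn2, the fibrillin of developing elastic fibres, went from 8.09 ± 0.900 to 5.91 ± 1.6 CPM (log2 fold change -0.46, adjusted p = 0.0158 with the block; DESeq2 0.274), and the call was lost without pair 1 or 3. Unpaired it was -0.27 without DKK1 replicate 1. The integrin genes of the list (Itgav, Itgb3, Itgb5, Itgb6 and Itgb8), whose products can release active ligand, and Thbs1, another activator, were called in neither fit.

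Of 7 co-receptors and related receptors, Acvr1b passed both fits. Acvr1b encodes ALK4, the type I receptor for activins and nodal, which signals through the same SMADs as Tgfbr1. It stood at 30.6, 30.2 and 30.7 CPM in controls and 37.9, 39.8 and 37.7 CPM with DKK1, a rise without overlap (log2 fold change 0.33, SE 0.0444, edgeR adjusted p = 0.0145; with the block 0.000181). The unpaired call was lost without control replicates 1 or 2 or DKK1 replicates 1 or 2 (adjusted p of 0.0663 to 0.08). Cd109, a membrane co-receptor that dampens TGF-beta signalling, fell with the block, from 67.5 ± 16.3 to 55.2 ± 13.2 CPM (log2 fold change -0.30, adjusted p = 6.26e-05; unpaired 0.679). The unpaired value ran from -0.0716 without control replicate 2 to -0.519 without DKK1 replicate 2, while with the block it was -0.31 to -0.29 with a pair left out. The endoglin gene Eng and the pseudoreceptor gene Bambi were called in neither fit.

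Among the 4 signal transducers, Smad3, which carries the signal of the type I receptor to DNA, was called with the block alone. It went from 110.1 ± 8.86 to 127 ± 11.2 CPM (log2 fold change 0.20, edgeR adjusted p = 0.000182; unpaired 0.379), and unpaired was 0.134 without control replicate 3. Smad2, Smad4 and Zfyve9 were not called in either fit. Of 11 inhibitors, 0 were called unpaired, where 2 had an unadjusted p under 0.05 (DESeq2 without the block called 0), and 3 with the block, of which DESeq2 with the block called 0. Nedd4l, a ubiquitin ligase of activated SMADs, rose from 35.1 ± 0.822 to 40.0 ± 2.78 CPM (adjusted p = 0.0143 with the block; DESeq2 0.469). Smad6, an inhibitory SMAD of the bone morphogenetic protein branch, fell from 55.8 ± 15.7 to 49.8 ± 12 CPM (adjusted p = 0.0144 with the block; DESeq2 0.392), and the corepressor gene Ski from 248 ± 11.9 to 229.6 ± 5.36 CPM (adjusted p = 0.00907 with the block; DESeq2 0.0708). Each of these calls was lost without pair 2, that of Smad6 also without pair 3 and that of Ski with the GC and length trend removed (0.103). In the unpaired fit the sign of Smad6 turned, to 0.0694, without control replicate 3.

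Of 16 known target genes, which also respond to other signals, 2 were called in the unpaired fit and 9 with the block, 1 higher and 8 lower, with a median log2 fold change of -0.11 in both fits, beside 0.895% and 9.42% of all tested genes called. Without pair 2 the block called 5, Junb higher and Acta2, Ccn2, Eln and Tagln lower. Eln, the elastin gene, fell from 117, 153 and 113 CPM to 59.2, 69.6 and 64.5 CPM, without overlap (log2 fold change -0.995, edgeR adjusted p = 0.0076; 0.0556 without DKK1 replicate 1). Junb, an AP-1 subunit gene and early TGF-beta target, rose from 163, 181 and 176 CPM to 219, 249 and 226 CPM (log2 fold change 0.41, adjusted p = 0.02). Its call was kept only without DKK1 replicate 3 among the 6 fits that left out a library. Junb shares exons with Prdx2 on the opposite strand and Eln with the antisense gene Gm30003. Fbn2, Nedd4l, Ccn2, Tagln, Fn1 and Lox, called with the block, likewise overlap exons of opposite-strand genes. So do the members Tgfb2, Tgfb3 and Ltbp2, and list genes called in neither fit, among them Thbs1, Itgav, Eng and Zfyve9. Without stranded counting the values of all these genes are uncertain. Acta2, the smooth muscle actin gene that marks myofibroblasts, stood at 5932 ± 425 CPM in controls and 5145 ± 507 CPM with DKK1 and fell with the block (log2 fold change -0.21, adjusted p = 4.16e-06; unpaired 0.3). The smooth muscle marker sum and Myh11, given above, were lower with DKK1 as well, and their part in the target genes was not tested. Of the fibrillar collagen genes in the list, Col1a1 was lower in all 3 pairs and called with the block (log2 fold change -0.10, adjusted p = 0.00107), and Col3a1, at 0.016, was called in neither fit. The call of Col1a1 with the block was lost once the GC and length trend was removed.

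**Figure D4:**
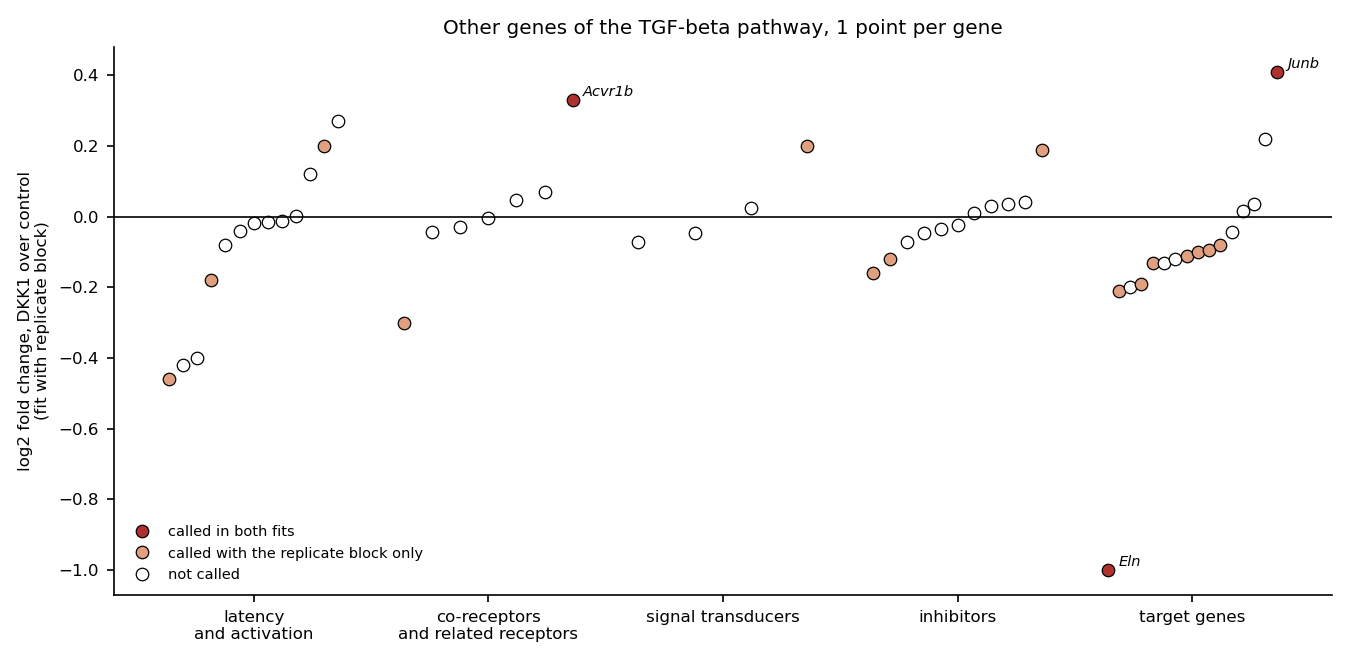
Log2 fold change with the replicate block for each of the 51 other pathway genes, grouped by list; red points were called in both fits, orange ones with the block only, open ones in neither. Acvr1b, Junb and Eln are the red points, and 8 of the 9 called target genes lie below 0.

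The genes whose levels followed Tgfb3 most closely over the 6 libraries, among those with a mean of at least 1 CPM, were Intu, Capn2 and Abca6. Their Pearson correlations of log2 CPM with Tgfb3 were 0.9915, 0.9899 and 0.9895. These are by construction the highest among the tested genes above that level, over 6 libraries that share the DKK1 and replicate differences, and carry no test. Capn2, a calpain protease gene, ran from 719.8 to 744 CPM in controls and from 661 to 689 CPM with DKK1.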

How the data were processed

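RNA of 6 samples was measured by sequencing. The deposited values are expected counts per gene, unscaled; RSEM, STAR and edgeR 4.2.1 and the build GRCm38 are named in the submitters' processing notes, while the annotation and strandedness are not given in the sources used here. After rounding, the whole table was tested with edgeR 4.0.16 under R 4.3.3 (glmQLFit and glmQLFTest, two-sided, TMM scaling, filterByExpr with a minimum count of 10, 14635 genes, Benjamini-Hochberg adjustment over all of them). The calculation was checked on simulated counts with known changes, which does not measure its error rate in these libraries. A standard error is the size of the log2 fold change over the root of its F statistic. A floor of 3 counts is 0.0864 to 0.133 CPM and covers counting error only. Symbols matched 98.8% of the identifiers. Lengths, GC contents and overlaps came from GENCODE M21 (GRCm38).

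The replicate numbers come from the sample titles. Across genes, samples with the same number deviated from their groups' means together, with correlations of 0.241, 0.189 and 0.357, above 0.1 in every pair, so the numbers were taken to pair the samples, and blocked values are given beside unpaired ones. Members, lists and tests were chosen with earlier results of these data known. Named were all members, the list genes called unpaired, up to 3 per list with the largest change among those called with the block, and the 3 genes most like the member with the lowest p. Thbs1, the integrins, Eng, Bambi, Smad2, Smad4, Zfyve9, Col1a1, Col3a1, Ccn2, Tagln, Fn1, Lox and the single cell type markers were named after their values were seen. Alternatives were other scalings, filters, DESeq2 1.42.0, limma-voom 3.58.1, unrounded counts, equal depth, removal of the GC and length trend, and leaving out libraries. Leaving out pairs was added after seeing the data.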

Additional observations from a re-analysis of the deposited data

How the results depend on the processing

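The number of genes called over the table, 131 in the unpaired fit, was 329 without a low-count filter, 289 with DESeq2, 1379 with the replicate block, 558 with DESeq2 and the block, and 1289 with the block after removal of trends with GC content and length. It ranged from 36 to 139 when a library was left out, and with the block it was 1312, 612 and 1060 without pairs 1, 2 and 3. The number of members called, 1 in the unpaired fit, was 6 with the replicate block, 3 with DESeq2 and the block (Tgfb3, Tgfbr3 and Ltbp2) and 7 with the block and trends removed, from 0 to 1 with a library left out, and 6, 2 and 7 with the block and pair 1, 2 or 3 left out. It was 0 without control replicate 1, DKK1 replicate 1 or DKK1 replicate 2, and without control replicate 3 the member called was Tgfbr1 in place of Tgfb3. For the 51 other pathway genes the count of 3 became 18, 10 and 15 under the same 3 settings, from 0 to 3 with a library left out, and 19, 10 and 14 with those pairs left out. The cause of these differences was not tested.

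Skil, at -0.00049 in the unpaired fit, turned to 0.00434 with library totals, 0.00245 without a filter, 0.00364 with the block, 0.00197 with DESeq2 and the block, 0.00149 with limma-voom and 0.00139 at equal depth. With a library left out the log2 fold change ranged from -0.0619 to 0.0916 for Skil, -0.0971 to 0.0495 for Ltbp1, -0.0304 to 0.178 for Smad7, -0.0143 to 0.174 for Tgfbr2 and -0.375 to 0.0694 for Smad6. With the block, Ltbp1 was 0.00386 without pair 2, and Skil was -0.00945, -0.0121 and 0.0325 without pairs 1, 2 and 3. The sign of Tgfb1, Tgfb2, Tgfb3, Tgfbr1, Tgfbr3 and Ltbp2 was kept in all 21 alternatives run for each. The length of the transcripts mattered for the order of levels: with the longest transcript 3 of the 10 members kept their place over the 6 libraries. Tgfb2, the member with the fewest counts, had 685 to 997 per library, and Fbn2 123 to 260; at equal depth the value of Tgfb2 was -0.211.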

Other observations

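Promoters of 6 members were taken from the RefSeq table (GRCm38.p6), those of Tgfb1, Tgfb2, Tgfbr1, Tgfbr2, Ltbp1 and Ltbp2. Tgfb3, Tgfbr3 and Skil did not match it. Smad7 was not searched, because windows on chromosome 18, where it lies, were left out. Of the 8 windows of these 6 members, that of Tgfb2 alone held the TATA box, E-box or TCF/LEF letters. The first of the Tgfbr1 windows had a G and C content of 74.8% and 2 GC boxes, close to the 75.2% of Tgfb1. The Ltbp2 window held 2 SMAD cores and 2 GC boxes, and the first Ltbp1 window 1 SMAD core and a cyclic AMP core on each strand, at 73 to 69 and 70 to 66 bases before the start, which overlap. These counts are descriptions.

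The summed receptor level per length was 146 ± 2.75 TPM in controls and 166 ± 13.5 TPM with DKK1 (SD, n = 3 each), and the share of Tgfbr3 in it 18.6%, 22.7% and 17.9% in controls and 21.4%, 25.9% and 20.1% with DKK1. The share was higher with DKK1 in each pair, and the groups overlapped.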
